A study of Mus musculus with 6 samples.

Results

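The genes described here carry glucose into the cell and break it down to lactate: the glucose transporter Slc2a1 and 9 genes for glycolytic enzymes, Hk2, Pfkp, Pfkl, Aldoa, Tpi1, Gapdh, Pgk1, Eno1 and Ldha. They were taken by gene symbol from a table of 27794 RefSeq transcripts and 21837 symbols, and the rule that finds them uses no measured change. All 10 of 10 symbols were found, in 13 transcript rows, and for a gene with several rows the one with the highest mean was used. The table gives poly-A RNA of primary wildtype mouse embryonic fibroblasts (MEFs) in RPKM (reads scaled to exon length and to sequencing depth), before treatment and after 1.5, 6 and 24 hr of TNFα. H3K4me3, a histone mark of active promoters, was mapped in untreated MEFs with 1 ChIP library.

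Every MEF library came from the strain C57BL/6x 129, from 13.5-day embryos that were littermates, after 4 passages. The control library had no treatment, and the other 3 RNA libraries had 20 ng/ml of TNFα. No deletion or transgene was given for any group. There was 1 library per time, so no difference between times could be tested, and every ratio below compares single libraries. Each library has 2 columns of values, R1 and R2, whose meaning is not stated in the sources used here. They were averaged, and both are given as a range but not as replicates. One protocol field of the 24 hr library describes ChIP, but its other labels mark it as RNA and it was used as such.

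Glycolysis turns glucose into pyruvate in the cytosol and yields ATP without oxygen, and lactate dehydrogenase turns the pyruvate to lactate so that the pathway can go on. Entry of glucose, its phosphorylation by hexokinase and the phosphofructokinase step are the points where the flow is set, while the steps between aldolase and enolase run close to equilibrium and serve both directions. Several of these genes, Slc2a1, Hk2 and Ldha among them, are known targets of the hypoxia-inducible factor and of MYC, and inflammatory signals are known to raise glycolysis in many cells.

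The values are RPKM in the deposited units, which are a constant multiple of the usual scale. Among 6022 coding genes with a mean of at least 100 over the 8 columns, the treated libraries had median log2 ratios of 0.44 (1.5 hr), -0.74 (6 hr) and 0.10 (24 hr) to the untreated one. At 6 hr 87.4% of the coding genes were below their untreated value and the sum of the whole table was 0.563 of the untreated sum, so the 6 hr library stood apart as a whole. For this reason the ratios of the 10 genes are set beside the median of the coding genes or given as a percentile among them, which no scaling of a library can change. Steps between the lowest values gave relative read depths of 0.857 to 1.19, with the untreated R1 column at 1.00, but the number of reads behind each value is unknown. As a check of the treatment, 6 of 6 NF-κB target genes were at least 2-fold higher at every time, with Nfkbia at log2 ratios of 4.50, 3.06 and 4.18. The shares of all coding genes were 29.8%, 1.84% and 16.8%. Tnfaip3, Cxcl1, Icam1 and Sod2 were under 100 before treatment and passed the minimum through treated libraries. Their higher levels are thus not independent of the selection, while Nfkbia and Ccl2 were above 100 in every library. Of the fibroblast markers 6 of 7 passed the minimum, and the summed level of the list was 83764, 82001, 39120 and 51881 in the 4 libraries. At 24 hr their median log2 ratio was -0.59, with Col1a1 at -1.85, Pdgfrb at -1.18 and Vim at 1.49. The summed endothelial markers did not exceed 5.04 and the summed epithelial markers 49.1, with Epcam at 0. In bulk RNA, fewer cells of a type and less RNA per cell cannot be told apart.

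The promoters of the genes whose ratios lay farthest out, Slc2a1, Hk2 and Ldha on the high side and Pfkl on the low side, are shown first. RefSeq promoter sequences (GRCm38.p6) were found for 10 of 10 genes in 15 windows, and the 250 bases before each start were placed on mm9 (NCBIM37) by exact match. Capitals mark the core of the hypoxia response element, ACGTG or GCGTG, on either strand, and bases in annotated exons were left out. The Slc2a1 stretch (chr4:118781100-118781315, plus strand, 216 bases) ends 34 bases before the RefSeq start, since those bases lie in an annotated exon. The Hk2 stretch (chr6:82724449-82724698, minus strand) and the Ldha stretch (chr7:54100924-54101173, plus strand) hold all 250 bases. The Ldha stretch lies inside the span of the annotated gene, which has an earlier start. The Pfkl stretch (chr10:77472553-77472749, minus strand) holds the 197 bases outside an exon that starts farther upstream.
Slc2a1: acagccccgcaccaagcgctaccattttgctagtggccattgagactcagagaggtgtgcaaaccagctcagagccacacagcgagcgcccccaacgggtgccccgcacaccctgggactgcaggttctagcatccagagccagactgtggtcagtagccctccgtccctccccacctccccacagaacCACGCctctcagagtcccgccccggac
Hk2: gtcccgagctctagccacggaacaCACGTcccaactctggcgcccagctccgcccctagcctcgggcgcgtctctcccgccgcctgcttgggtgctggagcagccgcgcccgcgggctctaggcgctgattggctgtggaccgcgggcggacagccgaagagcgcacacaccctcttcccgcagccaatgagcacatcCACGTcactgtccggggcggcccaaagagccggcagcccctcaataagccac
Ldha: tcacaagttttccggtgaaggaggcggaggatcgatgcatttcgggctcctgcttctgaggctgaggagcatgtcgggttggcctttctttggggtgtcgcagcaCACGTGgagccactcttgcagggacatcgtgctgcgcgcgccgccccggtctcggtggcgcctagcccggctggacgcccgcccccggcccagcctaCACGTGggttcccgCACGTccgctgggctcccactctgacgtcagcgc
Pfkl: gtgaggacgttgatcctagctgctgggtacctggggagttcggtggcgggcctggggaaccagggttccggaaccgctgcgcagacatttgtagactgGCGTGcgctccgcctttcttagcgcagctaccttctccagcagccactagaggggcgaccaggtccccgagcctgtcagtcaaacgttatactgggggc

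The Ldha promoter held 3 separate matches to the hypoxia core. 2 of these are also E-boxes (CACGTG, the motif that MYC and related factors bind), and the overlap means that one stretch of letters serves both searches. Counted over all 250 bases before the first listed start, exons included, 8 of 10 genes had at least 1 match and 6 had at least 2. At least 3 were found in 2 genes, Ldha and Pfkp. Slc2a1 counts with 2 matches there, of which 1 lies in the printed stretch. The first share reads against 60.0% of 4368 coding genes at the minimum with a promoter sequence, and the second against 25.8%. The third reads against 9.32%. Tpi1 and Aldoa had no match there, and Aldoa had 1 in the window of each of its other starts. The E-box was found in 1 of 10 genes against 9.25% of the coding genes, the GC box GGGCGG in 6 against 63.3%, and the TATA box TATAAA in 0 against 6.00%. The consensus of NF-κB was found in 1 gene, Pgk1, against 8.93%. A match is a run of letters and no evidence of binding.

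The glucose transporter comes first in the pathway, and its RNA ratios were among the largest of the 10 genes at 1.5 and 24 hr. Uptake itself was not measured. Slc2a1, which encodes the basal glucose transporter GLUT1, was at 269 RPKM (R1 270, R2 268) in untreated MEFs, 889 after 1.5 hr, 215 after 6 hr and 712 after 24 hr. The level was high at 1.5 and 24 hr and a little under the untreated level at 6 hr. The 3.30-fold higher value at 1.5 hr, a log2 ratio of 1.72 (R1 1.72, R2 1.73), was at percentile 90.8 of the coding genes. At 6 hr the log2 ratio of Slc2a1 was -0.32, below the untreated value, yet it was 0.41 above the median of the coding genes (percentile 75.2). At 24 hr it was 1.40, or 2.65-fold, at percentile 92.3. Within each library the ratio of Slc2a1 to Hk1 was 0.811, 1.73, 1.29 and 1.75, so the transporter was higher relative to Hk1 at every time after TNFα. Relative to Hk2 it was not: Slc2a1 was 1.57 times Hk2 before treatment, and at 6 hr Hk2 was 1.95 times Slc2a1.

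Of the other sugar and lactate transporters in the list, 3 of 7 passed the minimum. Slc2a6, which encodes GLUT6, was at 114, 179, 204 and 251 RPKM, and with a log2 ratio of 1.14 it was at least 2-fold higher at 24 hr. Its log2 ratio at 6 hr, 0.84, was at percentile 97.7. Slc2a8, which encodes GLUT8, was at 198, 83.7, 54.1 and 80.9 RPKM, at least 2-fold lower at every time. Slc2a8 was above 100, the minimum set on the mean, in the untreated library only. It passed through that library, so its lower later levels are not independent of the selection. Slc16a3, the lactate exporter MCT4, was at 618, 844, 358 and 996 RPKM with log2 ratios of 0.45, -0.79 and 0.69 at percentiles 50.2, 46.3 and 72.4.

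Hexokinase traps glucose in the cell as its phosphate. Hk2, the inducible form, was at 172 RPKM in untreated MEFs, 241 after 1.5 hr, 419 after 6 hr (R1 433, R2 405) and 135 after 24 hr. It was highest in the 6 hr library, where most genes were low, and lowest at 24 hr. The 6 hr ratio of 2.44-fold, log2 1.29 (R1 1.35, R2 1.22), was at percentile 98.7 and lay 2.03 above the median of the coding genes. At 1.5 hr its log2 ratio of 0.49 was at percentile 51.6, next to the median, and at 24 hr it was -0.34 at percentile 32.6. By level, Hk2 was at rank 4216 among the coding genes in the untreated library and at rank 1291 at 6 hr.

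The isozymes of hexokinase can be compared inside a library, where scaling has no part. Hk2 made up 30.9% of the summed RPKM of Hk1, Hk2 and Hk3 in untreated MEFs, 30.4% after 1.5 hr, 69.3% after 6 hr and 23.9% after 24 hr. The columns differed little, with 69.0% in R1 and 69.7% in R2 at 6 hr. Hk1, the constitutive form, was at 332, 515, 167 and 408 RPKM and made up 59.7% of the sum before treatment and 27.7% at 6 hr. The sum itself was 556 in the untreated library and 604 at 6 hr. Hk2 was thus the larger isozyme in the 6 hr library only of the 4, at 2.51 times Hk1 against 0.332 to 0.517 in the other 3.

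**Figure D1:**
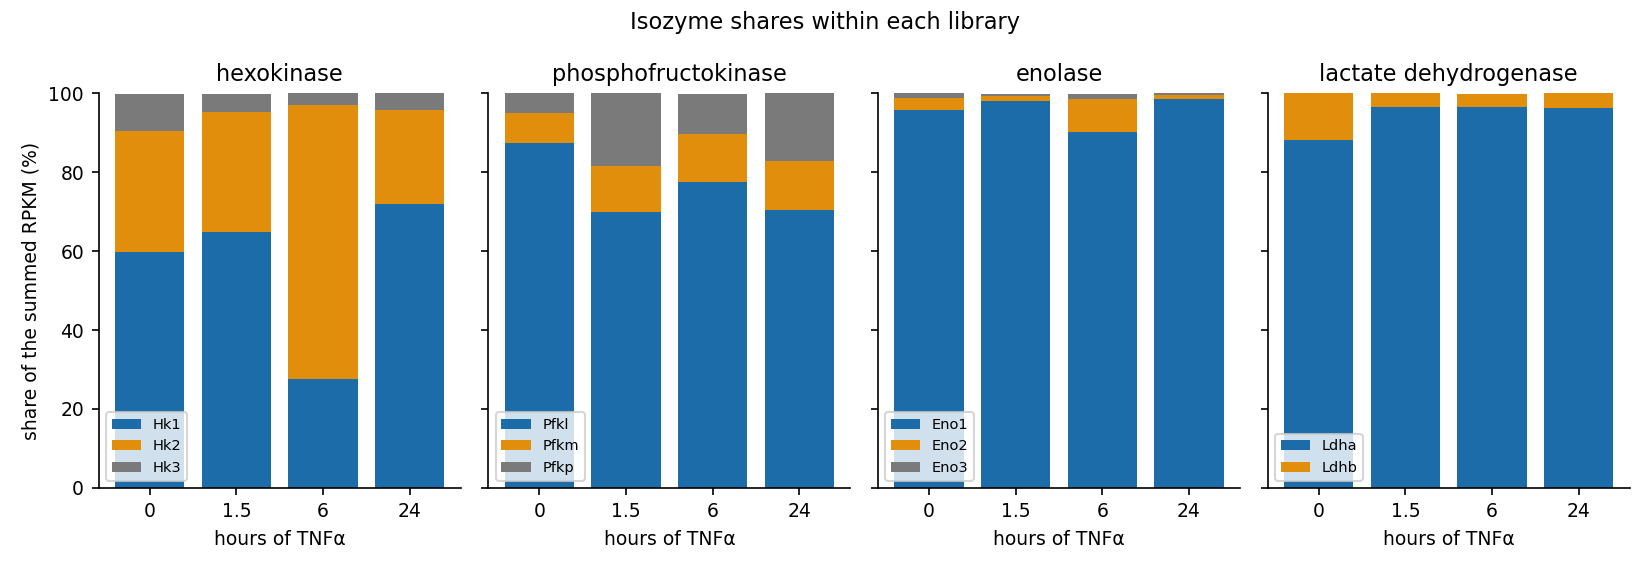
Share of each isozyme in the summed RPKM of its family (y axis, percent) in the 4 libraries (x axis, hours of TNFα), for hexokinase, phosphofructokinase, enolase and lactate dehydrogenase. Each bar is 1 library with the mean of the R1 and R2 columns, and the Hk2 segment is 69.3% at 6 hr against 23.9% to 30.9% in the other libraries.

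Phosphofructokinase commits the sugar to glycolysis. Its isozymes Pfkl and Pfkp went apart in direction at 1.5 and 24 hr, while both were below the untreated level at 6 hr. Pfkl, the liver-type subunit, was at 2646 RPKM in untreated MEFs, 1266 after 1.5 hr, 849 after 6 hr and 1039 after 24 hr. It was high before treatment and low at all 3 later times, with no overlap of columns. Its log2 ratios of -1.06, -1.64 and -1.35 were at percentiles 6.86, 4.68 and 6.39. Relative to the median of the coding genes Pfkl was lower by log2 values of -1.51, -0.90 and -1.45.

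Pfkp, the platelet-type subunit, was at 151 RPKM in untreated MEFs, 334 after 1.5 hr, 112 after 6 hr and 251 after 24 hr. It was highest at 1.5 hr with a log2 ratio of 1.14 (R1 1.13, R2 1.16) at percentile 75.1, or 0.70 above the median of the coding genes, and its ratios at 6 hr and 24 hr, -0.43 and 0.73, were at percentiles 70.1 and 74.1. The share of Pfkp in the summed RPKM of Pfkl, Pfkm and Pfkp was 4.99% in untreated MEFs, 18.5% after 1.5 hr, 10.2% after 6 hr and 17.0% after 24 hr. Pfkl remained the larger isozyme throughout, at 87.4%, 70.0%, 77.5% and 70.4%. The ratio of Pfkl to Pfkp was 17.5 before treatment and between 3.79 and 7.58 afterwards. Shares within a library are free of scaling but not of GC content. At 1.5 hr genes of like GC content had median log2 ratios of 0.94 for Pfkp (48.9% GC) and -0.15 for Pfkl (57.1% GC). The part of GC content in the shift of shares was not tested. The muscle-type subunit Pfkm was at 230, 208, 134 and 186 RPKM, with no ratio past 2-fold.

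The middle of the pathway comprises Aldoa, which splits the sugar, Tpi1, which interconverts the products, Gapdh, Pgk1 and Eno1. Their ratios resembled those of the average gene at 1.5 hr. Aldoa was at 11008, 17386, 5249 and 17869 RPKM. Tpi1 was at 7195, 10976, 3374 and 10745 RPKM. Both were high at 1.5 and 24 hr and low at 6 hr. Aldoa has a listed copy, Aldoart2, at 208, 904, 190 and 746 RPKM, and reads could be divided between them. Within the 4 libraries the ratio of Tpi1 to Aldoa was between 0.601 and 0.654.

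Pgk1, the first step that gives ATP, was at 2857, 4314, 1163 and 3670 RPKM. Eno1, the most abundant of the 10 genes in every library, was at 28241, 33755, 10905 and 29411 RPKM, and its 24 hr level was 1.04 times the untreated level. The log2 ratios of these 5 genes, Gapdh included, were between 0.26 and 0.66 at 1.5 hr (percentiles 43.2 to 58.1). At 6 hr they were between -1.37 and -1.07 (percentiles 12.2 to 26.9). At 24 hr they were between 0.06 and 0.93 (percentiles 48.1 to 81.2). Relative to the median of the coding genes the 5 were between -0.63 and -0.33 at 6 hr, so all 5 were below it. At 1.5 hr Pgk1 and Eno1, and at 24 hr Eno1, changed sign under at least 1 other scaling or GC centring, and Pgk1 at 24 hr stood at -0.01 against genes of like GC content.

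Eno2, the neuronal enolase, went against Eno1, at 882, 437, 1021 and 315 RPKM. It made up 8.45% of the summed enolases at 6 hr and 2.99% in the untreated library. Eno3, the muscle form, was at 337, 203, 158 and 139 RPKM. Of the remaining steps, Pgam2 differed most. Gpi1, the isomerase before phosphofructokinase, was at 4774, 4384, 2509 and 3704 RPKM. Pgam1, the phosphoglycerate mutase, was at 1857, 3754, 1120 and 3014 RPKM with a log2 ratio of 1.02 at 1.5 hr (percentile 70.9). Its muscle form Pgam2 was at 232, 83.6, 65.5 and 42.6 RPKM, with log2 ratios of -1.47, -1.82 and -2.44 at percentiles 2.79, 2.32 and 0.614. Pgam2 was above 100, the minimum set on the mean, in the untreated library only. It passed through that library, so its lower later levels are not independent of the selection. Pgam2 is among the lower genes counted below at every time. Bpgm, which makes bisphosphoglycerate, was at 116, 260, 67.5 and 211 RPKM with a log2 ratio of 1.17 at 1.5 hr (percentile 75.9). Pkm2, the pyruvate kinase, was at 27568, 31176, 10109 and 23930 RPKM, close to Eno1 in level and in its ratios of 0.18, -1.45 and -0.20 on the log2 scale, at percentiles 40.5, 9.65 and 37.7. Of the 18 isozymes and remaining steps in the list 10 passed the minimum, and by at least 2-fold 2 were higher and 2 lower at 1.5 hr, none higher and 4 lower at 6 hr, and none higher and 3 lower at 24 hr. The shares of all coding genes at these times were 29.8% and 7.94%, 1.84% and 31.5%, and 16.8% and 12.8%.

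Lactate dehydrogenase A closes the pathway and had the largest ratio of the 10 genes at 1.5 and 24 hr, though against genes of like GC content Slc2a1 was larger at both times. Ldha was at 2104 RPKM in untreated MEFs (R1 2174, R2 2035), 8363 after 1.5 hr (R1 8759, R2 7967), 2191 after 6 hr and 6368 after 24 hr. It was high at 1.5 and 24 hr, and the 6 hr columns, 2338 and 2044, overlapped those of the untreated library. The value at 1.5 hr was 3.97-fold higher, log2 1.99, at percentile 94.9. At 24 hr it was 3.03-fold higher, log2 1.60, also at percentile 94.9. The 6 hr log2 ratio was 0.06, which in that library was 0.80 above the median of the coding genes, at percentile 89.1. The second Ldha transcript row gave 1.97, 0.00 and 1.57.

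Ldhb, the isozyme that favours the reverse reaction to pyruvate, was at 284, 307, 78.4 and 247 RPKM. The ratio of Ldha to Ldhb was 7.41 in the untreated library and 27.3, 28.0 and 25.8 at 1.5, 6 and 24 hr. At 6 hr this ratio was as high as at the other times, while the level of Ldha overlapped the untreated level. Ldha rank among the coding genes was 438 before treatment and 163, 247 and 165 afterwards. Ldha has a listed near-identical copy, Gm13315, and reads could be divided between them, so the Ldha level is uncertain to that extent.

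**Figure D2:**
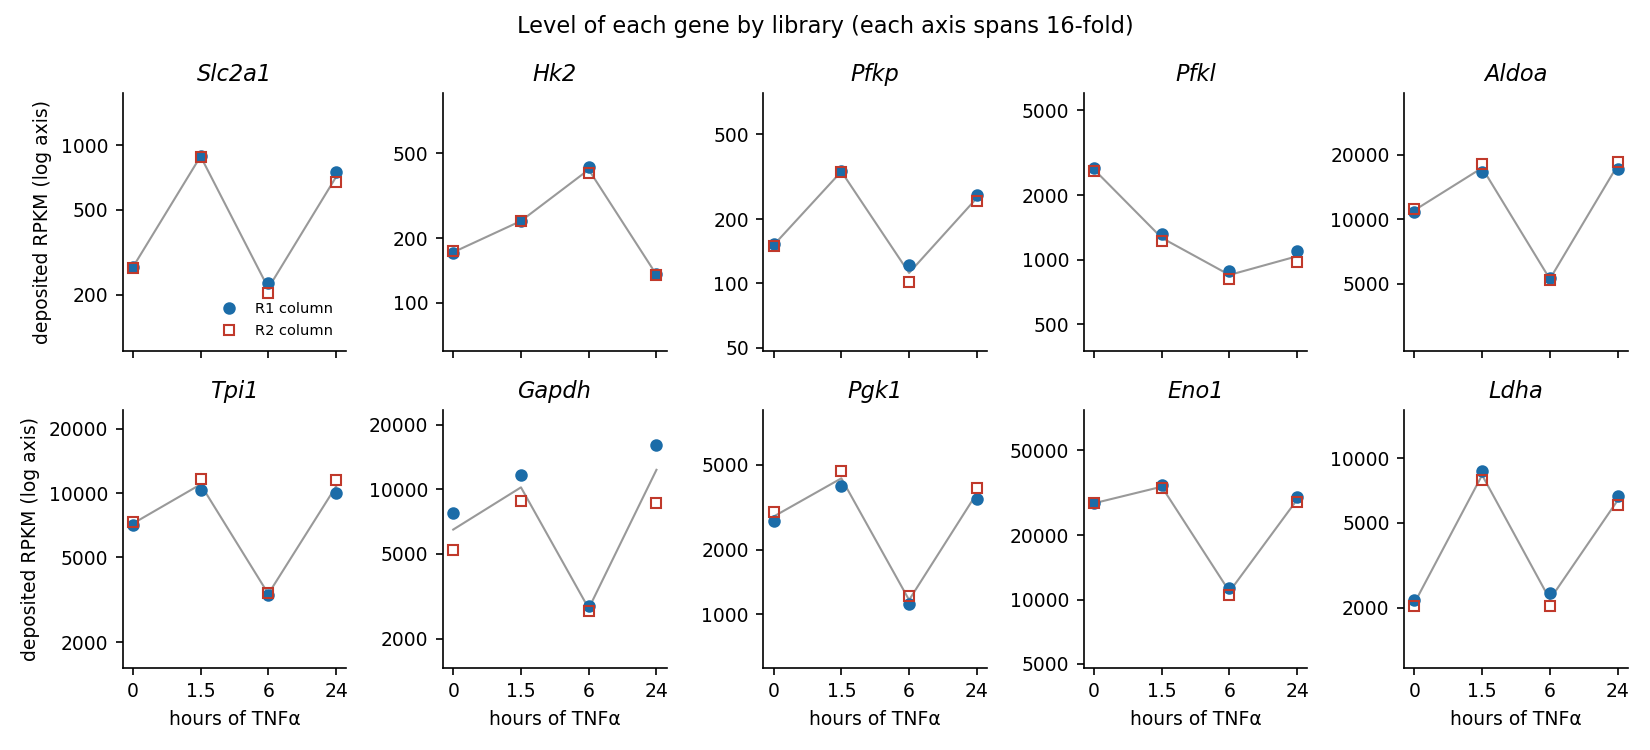
Level of each of the 10 genes in deposited RPKM (y axis, log scale, each spanning 16-fold) in the untreated library and after 1.5, 6 and 24 hr of TNFα (x axis, evenly spaced and not to scale). Points are the R1 and R2 columns of 1 library and the line joins their mean, with Hk2 highest at 6 hr (419), Pfkl highest before treatment (2646) and the other 8 genes highest at 1.5 or 24 hr.

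Set together, 3 of the 10 genes (Slc2a1, Pfkp and Ldha) were at least 2-fold higher at 1.5 hr, where 29.8% of all coding genes were, and 1 (Pfkl) was at least 2-fold lower, where 7.94% were. At 6 hr 1 gene (Hk2) was at least 2-fold higher against 1.84% of the coding genes, and 6 (Pfkl, Aldoa, Tpi1, Gapdh, Pgk1 and Eno1) were at least 2-fold lower against 31.5%. At 24 hr 2 (Slc2a1 and Ldha) were higher against 16.8% and 1 (Pfkl) was lower against 12.8%. The count of higher genes at 1.5 hr is therefore at the background. It was 2 under each of the 4 other scalings and GC centring, where Pfkp lay between 0.21 and 0.89 on the log2 scale and lost its call. Under each of the 4 other scalings of the libraries and under GC centring, 0 of the 6 lower genes at 6 hr stayed past 2-fold. Hk2 stayed past it, with log2 ratios of 2.03 to 2.12. The median log2 ratio of the 10 genes was 0.63, -1.08 and 0.64, or 0.19, -0.34 and 0.54 relative to the coding genes. The counts above the median of the coding genes were 8, 4 and 7 of 10.

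**Figure D3:**
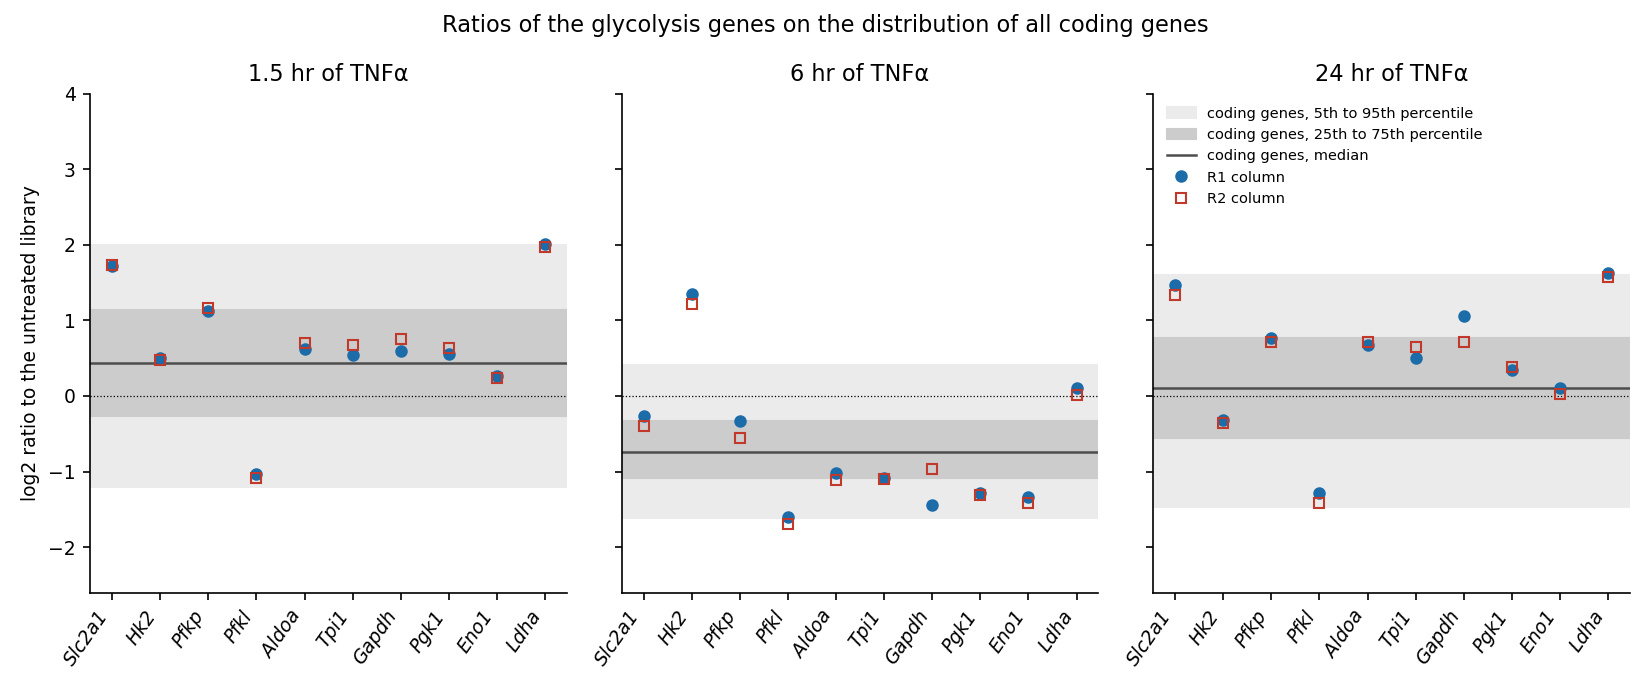
Log2 ratio to the untreated library (y axis) of the 10 genes (x axis) at each time, with both columns as points, on bands for the 5th to 95th and 25th to 75th percentiles of 6022 coding genes. Hk2 at 6 hr, with 1.35 and 1.22, lies above the upper band edge of 0.41, and Pfkl lies below the lower quartile at every time.

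By level the 10 genes spanned a 187-fold range in the untreated library and 140-, 97.3- and 217-fold ranges at 1.5, 6 and 24 hr. Before treatment the order was Eno1, Aldoa, Tpi1, Gapdh, Pgk1, Pfkl, Ldha, Slc2a1, Hk2 and Pfkp. Ldha passed Pgk1 and Pfkl at every later time, and Hk2 passed Slc2a1 at 6 hr only. Tpi1 and Gapdh could not be ordered in the untreated, 1.5 hr and 24 hr libraries, since their columns gave opposite orders. Pgk1 and Pfkl stood only 1.08 apart before treatment and 3.41 and 3.53 apart at 1.5 and 24 hr.

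Gapdh, the dehydrogenase of the middle step and a common reference gene in quantitative PCR, was the gene of the 10 whose R1 and R2 columns differed most. The untreated library gave 7731 in R1 and 5221 in R2, 1.5 hr gave 11618 and 8792, 6 hr gave 2848 and 2687, and 24 hr gave 16063 and 8592. The R1 column was higher in each library. R1 divided by R2 was 1.48, 1.32, 1.06 and 1.87, at percentiles 99.0, 98.0, 38.5 and 99.6 of the coding genes, whose 5th to 95th percentile range was 0.884 to 1.23 at 24 hr. The 24 hr log2 ratio of Gapdh was 1.06 in R1 and 0.72 in R2, with a mean of 0.93, so the 2-fold mark was passed in one column only. At 6 hr it was -1.44 in R1 and -0.96 in R2, with a mean of -1.23. Pgk1 had R1 under R2 in every library, at percentiles 4.33 to 5.88.

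The table lists 8 processed copies of Gapdh, near-identical in sequence, which could take its reads. The study found several Gapdh pseudogenes to be induced by TNFα in its sequencing but could not back this with quantitative PCR. Their summed level was 592 in R1 and 482 in R2 in the untreated library, but 16692 and 1839 at 1.5 hr, 102 and 701 at 6 hr and 621 and 2316 at 24 hr. At 1.5 hr the copies were 47.6% of the sum with Gapdh, against 7.66% before treatment. Most of this was 1 copy, Gm6498, at 14797 in R1 but 2.84 in R2, so the 47.6% rests largely on the R1 column. With the copies added to Gapdh, R1 over R2 became 1.46, 2.66, 0.871 and 1.53, so the sum did not bring the columns together. The log2 ratio of the sum was 1.47 after 1.5 hr, -1.15 after 6 hr and 0.98 after 24 hr (a sum chosen after the values were seen). At 1.5 hr this ratio was 1.77 in R1 and 0.90 in R2. The level of Gapdh is therefore uncertain by the share of reads placed on its copies.

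**Figure D4:**
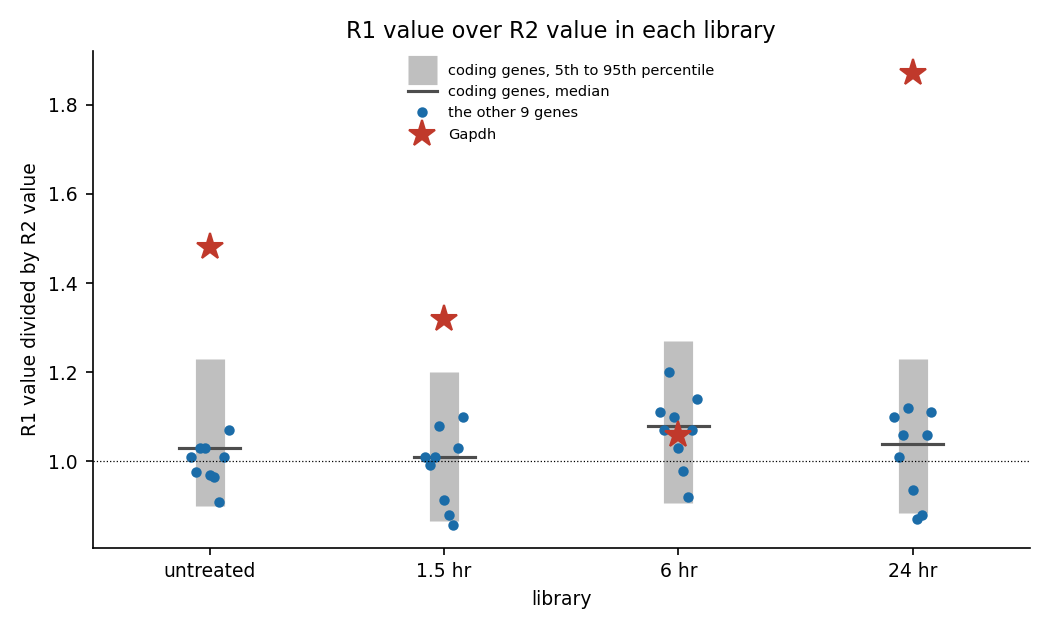
R1 value divided by R2 value (y axis, linear) for the 10 genes in each library (x axis), with bars for the 5th to 95th percentile and lines for the median of 6022 coding genes. Gapdh (star) is at 1.48, 1.32, 1.06 and 1.87 and lies outside the bar in 3 of the 4 libraries.

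As a reference, Gapdh did not keep a constant ratio to Actb, the cytoskeletal actin. Actb was at 114510, 96286, 50847 and 59333 RPKM, with log2 ratios of -0.25, -1.17 and -0.95. Gapdh over Actb was 0.0566, 0.106, 0.0544 and 0.208. The 24 hr value was 0.272 in R1 and 0.144 in R2, both above the untreated 0.0642 and 0.0481.

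The ratios of the whole table moved with GC content. Across 5903 coding genes the Spearman correlation of transcript GC content with the log2 ratio was -0.57 (1.5 hr), -0.36 (6 hr) and -0.55 (24 hr), a description across genes that share the 4 libraries. The median log2 ratio was 1.42 in the lowest and -0.76 in the highest of 20 GC bins at 1.5 hr. The 10 genes had GC contents of 48.9% (Pfkp) to 57.4% (Eno1). Against genes of like GC content, Slc2a1 stood at log2 values of 1.70, 0.60 and 1.71, and Ldha at 1.34, 0.86 and 1.32. Hk2 stood at 2.08 at 6 hr, and Pfkl at -0.91, -0.76 and -0.90. Ldha and Pfkl kept their direction at every time, Hk2 at 6 and 24 hr and Slc2a1 at 1.5 and 24 hr.

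Pfkp, by contrast, stood at 0.21, 0.10 and 0.14 once genes of its GC content were taken as the base. Aldoa stood at 0.81 at 1.5 hr and 1.15 at 24 hr, and Gapdh at 0.68 and 1.22, so both were then past 2-fold at 24 hr. Eno1 stood at 0.51, -0.50 and 0.53. The part of GC content in these ratios was not tested. GC centring was applied to the glycolysis genes only, so ratios and counts of the other lists are not corrected for GC content.

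**Figure D5:**
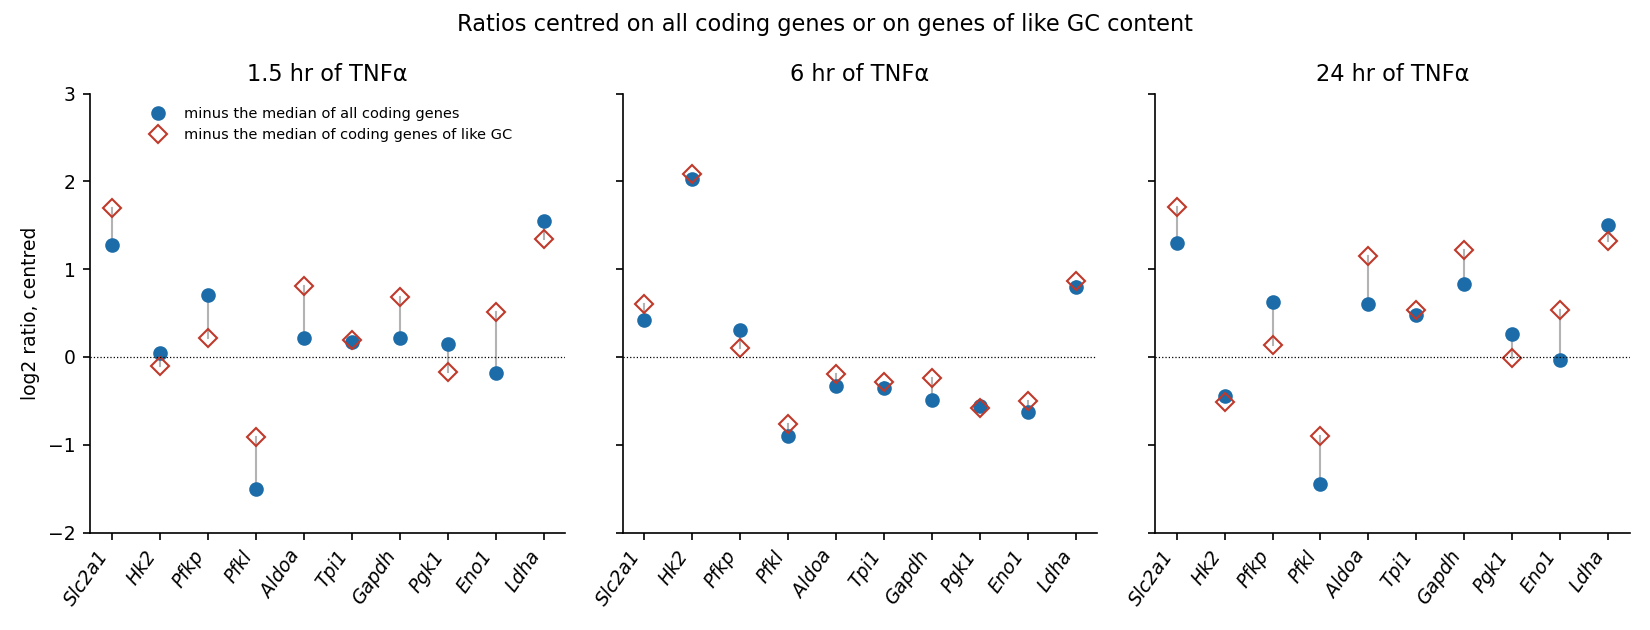
Log2 ratio of the 10 genes (x axis) at each time after subtraction of the median of all coding genes (filled circles) or of the coding genes in the same 1 of 20 GC bins (open diamonds). Slc2a1, Ldha and, at 6 hr, Hk2 remain above 0 under both, and Pfkp at 1.5 hr goes from 0.70 to 0.21.

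Of the regulators of glycolytic flux in the list, 5 of 15 passed the minimum. Hif1a, the oxygen-regulated subunit of the hypoxia-inducible factor, was at 159, 478, 193 and 370 RPKM, with log2 ratios of 1.59, 0.28 and 1.22 at percentiles 87.6, 93.0 and 88.4. Myc was at 133, 426, 204 and 326 RPKM, with log2 ratios of 1.68, 0.62 and 1.30 at percentiles 89.9, 96.8 and 90.1. Hif1a and Myc were highest at 1.5 hr and above the untreated level in all 3 libraries. Arnt, the partner subunit of Hif1a, was at 194, 236, 109 and 175 RPKM. Txnip, which restrains glucose uptake, was at 248, 555, 174 and 442 RPKM, and Pdk2, a kinase that restrains pyruvate dehydrogenase, at 176, 140, 72.6 and 103 RPKM. In all, 3 regulators were at least 2-fold higher after 1.5 hr, 0 after 6 hr and 2 after 24 hr, against 29.8%, 1.84% and 16.8% of the coding genes. At 6 hr 1 regulator, Pdk2, was at least 2-fold lower, at -1.27, against 31.5%. Of the hypoxia-responsive genes outside glycolysis 6 of 10 passed. By at least 2-fold, 2 were higher at 1.5 hr (Ndrg1 at log2 1.95, percentile 94.3, and P4ha1 at 1.16, percentile 75.6), which is near the 29.8% of the coding genes. At 24 hr 1 was higher (Bnip3 at 1.27, percentile 89.4), against 16.8%. Vegfa, named after its values were seen, was at 0.05, -0.43 and -0.37.

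Markers of other cells moved with time in part. Lyz2, a lysozyme of macrophages, was at 2257, 14668, 2692 and 7187 RPKM and carried the summed level of 5 markers, 3196, 15882, 3007 and 7666. Cd68 was at 605, 823, 202 and 312 and Csf1r at 295, 287, 90.1 and 124, while Ptprc and Emr1 did not exceed 30.8 and 74.0. None of the 5 was at 0. Of 4 skeletal muscle markers Acta1, an actin of muscle, was at 2118, 6688, 1354 and 4134 RPKM, high at 1.5 and 24 hr as Ldha and Slc2a1 were, while Myod1 was at 0 in every library and Myog and Ckm did not exceed 1.46 and 1.94. The part of these markers and of the fibroblast markers in the ratios of the glycolysis genes was not tested.

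Finally, all 10 genes carried H3K4me3 in untreated MEFs, each with 1 peak within 1 kb of an annotated start, and 92.5% of 5900 coding genes at the minimum had one too. The peak at Gapdh (chr6:125110643-125117979, mm9) covered the whole gene with 2963 tags, at percentile 96.2 of the coding genes with a peak. Eno1 (chr4:149610112-149618530) followed with 2950 tags and the longest peak of the 10, at 8419 bases. Aldoa had 2292 tags, Ldha 2119, Hk2 1833, Tpi1 1494, Slc2a1 1460, Pfkp 1295, Pgk1 1289 and Pfkl 1277, against a median of 1345. Pgk1, which is X-linked, had the lowest fold enrichment, 33.8 against a median of 50.7. Gapdh, Eno1 and Aldoa, with the most tags, were also among the genes highest in RNA before treatment. Their peaks were long too, at length percentiles 94.6, 97.1 and 83.1. Per kb of peak, Ldha (541 tags) and Hk2 (439) were highest, with Aldoa at 421, Gapdh at 404 and Eno1 at 350. The 2 genes with the fewest tags, Pfkl and Pgk1, were among the 6 most abundant, and Pfkp, the lowest in RNA, stood next to them. Hk2 and Slc2a1, low in RNA, had more tags than Pfkl and Pgk1.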

How the data were processed

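RNA of 4 MEF libraries and 1 H3K4me3 ChIP library were used as the labels group them, and the numbered columns of the table were matched to libraries through the study's own list. TopHat (RNA) and Bowtie (ChIP) alignments to mm9 were made by the authors, whose script gave RPKM for RefSeq transcripts. The deposited peak list, called with MACS on 1 library, holds tag counts, a fold enrichment ratio, an FDR in percent and a score from the p. The members and lists were chosen with earlier results of these data known, although the rule that finds them uses symbols and not changes.

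Identical rows (576) were dropped, R1 and R2 averaged, and ratios taken with no pseudocount. Calls needed 2-fold and a mean of at least 100. Named genes were all members, every isozyme, transporter and regulator at the minimum, and from other lists those past 2-fold in both columns, at most 4 a list by size, with Gapdh and Actb as the reference genes. Cell type markers were given as lists. Gm13315 was named after values were seen. GC content came from the longest coding transcript (GENCODE, mm9). Alternative scalings, GC centring in 20 bins, columns, rows, minimums and folds were tried, and the steps were tested on simulated data in Python 3.11.15 (numpy 2.4.6, pandas 2.3.3).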

Additional observations from a re-analysis of the deposited data

Results flagged for a closer look

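5 genes had log2 ratios of opposite sign at 2 times, in both columns and also relative to the median of the coding genes, and are listed for that reason. The difference between the times was not tested, since each time is 1 library. The rule was applied to the glycolysis genes only. The share of all coding genes that meet it was not counted, so the 5 cannot be read against a background. Before any centring, most coding genes rose in the 1.5 hr library (65.3% were above their untreated value). Most fell in the 6 hr library (87.4% were below it). Hk2 was above its untreated value at 6 hr (log2 1.29) and below it at 24 hr (-0.34), a difference of 1.63. Gapdh was at -1.23 at 6 hr and 0.93 at 24 hr, a difference of 2.16. Aldoa was at -1.07 and 0.70 at the same times, a difference of 1.77. Tpi1 was at 0.61 at 1.5 hr and -1.09 at 6 hr, a difference of 1.70. Pgk1 was at 0.59 and -1.30 at these times, a difference of 1.89. Hk2 was the single gene of the 5 whose high value was in the 6 hr library. At 1.5 hr the direction of Pgk1 changed with GC centring, to -0.17.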

How the results depend on the processing

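No ratio past 2-fold changed sign under any alternative that was run, and no paired analysis was possible because there is 1 library per time. The median log2 ratio of the 10 genes at 1.5 hr, 0.63, became 0.38 scaled to the sum, 0.23 by a median of ratios over all transcripts, 0.19 over coding genes, 0.24 by a trimmed mean and 0.36 centred on GC. At 6 hr, -1.08 became -0.25, -0.34, -0.34, -0.34 and -0.21 in that order, and -1.23 with a minimum of 1000. At 24 hr, 0.64 became 0.58 by a median of ratios over all transcripts, 0.54 over coding genes, 0.53 centred on GC, 0.53 with a pseudocount of 100 and 0.58 with a minimum of 1000. The 6 genes lower at 6 hr became 0 under each of the 4 scalings and GC centring, and 1 at 3-fold. The 3 higher at 1.5 hr became 2, without Pfkp, under the 4 scalings and GC centring, 2 with a pseudocount of 100 and at 3-fold, 1 with a minimum of 1000 and 7 at 1.5-fold. The 1 lower at 1.5 hr and at 24 hr (Pfkl) became 0 centred on GC and at 3-fold. The 1 higher at 6 hr (Hk2) became 0 with a pseudocount of 100, a minimum of 1000 or 3-fold. The 2 higher at 24 hr became 4 centred on GC, 1 with a minimum of 1000, 5 at 1.5-fold and 1 at 3-fold. The minimum of 1000 leaves out Slc2a1, Hk2 and Pfkp, and the other causes were not tested. All 10 peaks stayed under both other windows and the stricter FDR, and 9 had a fold enrichment of at least 40. Under the 4 scalings and GC centring, 7, 8 and 8 of 10 genes kept their direction at 1.5, 6 and 24 hr. Slc2a1 and Pfkp changed sign at 6 hr, Hk2, Pgk1 and Eno1 at 1.5 hr, and Pgk1 and Eno1 at 24 hr. The reads behind each value are unknown, so no counting error can be set on the lowest genes, Hk2 and Pfkp.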

Other observations

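Pathways that branch from glycolysis are given as values. Pyruvate entry to mitochondria had 5 of 7 genes at the minimum, and all 5 were at least 2-fold higher after 1.5 hr, 0 after 6 hr and 3 after 24 hr, against 29.8%, 1.84% and 16.8% of the coding genes. Brp44l, a subunit of the mitochondrial pyruvate carrier, was at 44.1, 364, 71.9 and 184 RPKM, with log2 ratios of 3.04, 0.71 and 2.06 at percentiles 99.3, 97.2 and 98.3. Its partner Brp44 was at 85.1, 230, 57.8 and 175 RPKM. Pdha1, a subunit of pyruvate dehydrogenase, was at 221, 528, 146 and 342 RPKM, and Dld, which it shares with other dehydrogenases, at 63.8, 202, 54.7 and 155 RPKM. Brp44l, Brp44 and Dld were above 100, the minimum set on the mean, at 1.5 and 24 hr only. They passed through those libraries, so their higher levels and the counts above are not independent of the selection. Ldha over Pdha1 was 9.52, 15.8, 15.0 and 18.6. Of the pentose phosphate pathway 5 of 7 passed the minimum. G6pdx, its entry enzyme, was at 210, 496, 148 and 507 RPKM, and Tkt, a transketolase, at 767, 1865, 420 and 1570 RPKM. Taldo1, a transaldolase, was at 691, 1150, 245 and 738 RPKM.

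Genes of gluconeogenesis and glycogen had 5 of 12 at the minimum, with 2 higher at 1.5 hr (Pgm1 and Pgm2, at 217 against 88.8 and 650 against 304 RPKM) and 2 lower at 6 hr (Pck2 and Pygb, at -1.06 and -1.64), near the 29.8% and 31.5% of the coding genes. Pgm1 was above 100 at 1.5 and 24 hr only and passed through those libraries, so its higher level is not independent of the selection. Of the reference genes of quantitative PCR 10 of 11 passed. At 1.5 hr 6 of the 10 were higher by at least 2-fold, where 29.8% of the coding genes were. Some of the 6 were above 100 at 1.5 and 24 hr only and passed through those libraries. This count is thus not independent of the selection.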
